A study of Bos taurus with 23 samples.

Results

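P2RY12 (ENSBTAG00000015837), ADAM20 (ENSBTAG00000038377) and CNKSR3 (ENSBTAG00000012674) are 3 of the 24616 genes counted in peripheral white blood cells (PWBC) of beef heifers. P2RY12 and ADAM20 encode proteins of the cell surface, and CNKSR3 encodes a signalling scaffold. P2RY12 and ADAM20 were selected on measured values of these heifers, because the rule of the study (given with its P values further on) called them higher in the heifers of station A that did not conceive to artificial insemination (AI), and CNKSR3 because the same rule called it higher in the non-pregnant heifers of station B. Values from those contrasts are therefore given as a description, without a test. The other station of each gene holds heifers that the choice did not use, and there each gene was tested.

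All 23 animals were pubertal Angus x Simmental crossbred heifers in their first breeding season, synchronized and inseminated at a fixed time, and the blood was drawn at insemination. Station A supplied 6 animals that conceived to AI (AI-pregnant) and 5 that conceived later to a bull by natural breeding (NB-pregnant). From station B came 6 AI-pregnant heifers and 6 that ended the season without a pregnancy (non-pregnant). The breeding season was longer at station A than at station B. Each heifer gave 1 library and is 1 replicate, the RNA came from a mixed population of leukocytes after lysis of red blood cells, and the 2 stations differ in the outcome that was compared with AI-pregnant.

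P2RY12 is a G protein-coupled receptor for ADP. On platelets it sustains aggregation and is the target of clopidogrel and related drugs, and it is also a marker of microglia. ADAM20 belongs to the family of membrane-anchored proteins with a disintegrin and a metallopeptidase domain, and in other mammals its transcript is known mainly from testis. CNKSR3 belongs to the connector enhancer of kinase suppressor of Ras family, scaffolds that bring signalling proteins together at the membrane, and in kidney epithelium it is induced by aldosterone and promotes the activity of the epithelial sodium channel.

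Libraries of station A held 4826003 to 20053283 counted read pairs, and those of station B 5577129 to 20434401. Some libraries stood apart. In station A the 100 most abundant genes took 24.1% to 29.4% of the counts in 5 libraries (AI-pregnant heifers 4 and 5 and NB-pregnant heifers 1, 4 and 5) and 13.1% to 18.4% in the other 6. In station B, 3 libraries (AI-pregnant heifer 3 and non-pregnant heifers 1 and 4) had 12166 to 12394 genes above 1 CPM (the count of a gene scaled to the total of its library), against 9970 to 10905 in the other 9.

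All 3 genes passed the filter on low values, more than 1 CPM in 6 or more libraries, in each station, where 12128 genes (A) and 10832 genes (B) were retained. They were scarce transcripts. Genes were ranked by the mean of log2 CPM over the libraries of a station, with a small constant added to CPM. P2RY12 stood at percentile 16.0 of the retained genes in station A and 19.9 in station B, CNKSR3 at percentile 11 and 4.61, and ADAM20 at percentile 5.58 and 2.58. P2RY12 exceeded 1 CPM in 11 of 11 and 12 of 12 libraries, CNKSR3 in 11 of 11 and 8 of 12, and ADAM20 in 8 of 11 and 8 of 12.

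On the scale of FPKM, which takes out transcript length, the medians of the 3 genes were closer to each other in station A than in station B. The median FPKM over the 11 libraries of station A was 1.06 for P2RY12, 0.843 for CNKSR3 and 0.811 for ADAM20. Over the 12 libraries of station B it was 1.28 for P2RY12, 0.548 for CNKSR3 and 0.592 for ADAM20. P2RY12 had the highest FPKM of the 3 genes in 7 of 11 libraries of station A and in 11 of 12 of station B.

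**Figure D1:**
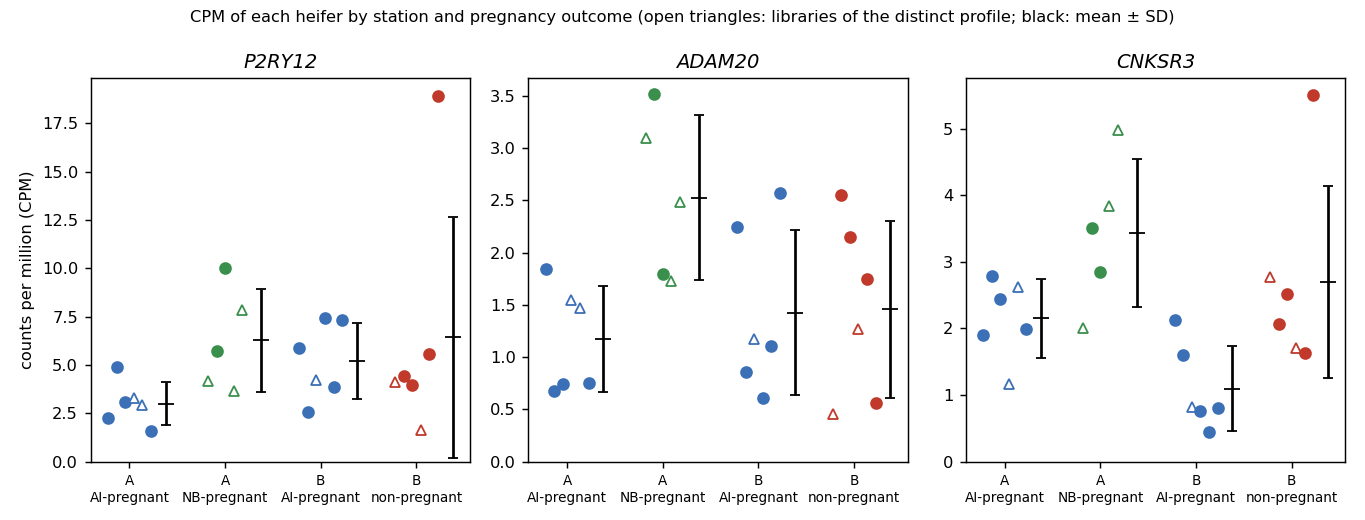
CPM of P2RY12, ADAM20 and CNKSR3 in each heifer (points), by station and pregnancy outcome, with the mean and SD of the group in black. Each vertical axis starts at 0 and has its own range, and open triangles mark the 5 libraries of station A and 3 of station B whose overall profile stood apart. In every panel the ranges of the AI-pregnant heifers and of the other group of the same station overlap, and the 18.9 CPM of P2RY12 in 1 non-pregnant heifer lies far above all other values.

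In station A, where it was chosen, P2RY12 had the higher mean in NB-pregnant heifers, and all 5 of them lay above the median of the AI-pregnant group. NB-pregnant heifers 1 to 5 had 4.19, 5.71, 10.02, 3.64 and 7.87 CPM of P2RY12. The 6 AI-pregnant heifers had from 1.58 to 4.89 CPM, with a median of 3.01 CPM. Heifers 2, 3 and 5 of the NB-pregnant group lay above every AI-pregnant heifer, while heifers 1 and 4 lay within the range of the AI-pregnant group. The means were 6.29 ± 2.66 CPM (SD, n = 5) and 3.01 ± 1.11 CPM (SD, n = 6), a ratio of 2.09, and the fitted log2 fold change was 1.16 (SE 0.37).

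In station B the receptor transcript did not separate the outcomes. The 6 AI-pregnant heifers had from 2.57 to 7.42 CPM of P2RY12, with a median of 5.07 CPM. The 6 non-pregnant heifers had from 1.66 to 18.9 CPM, with a median of 4.30 CPM. A single non-pregnant heifer, number 6, was above all AI-pregnant heifers, and the next highest of its group had 5.57 CPM. The 18.9 CPM of heifer 6 rest on 134 read pairs, with a 95% Poisson interval of 15.8 to 22.4 CPM that covers counting error only. The difference of the means, 6.45 ± 6.23 against 5.22 ± 1.98 CPM (SD, n = 6 each), was 1.23 CPM, smaller than the SD of either group. Most relabellings of the heifers gave a difference at least as large (exact permutation test, two-sided, p = 0.872, where the smallest p that 6 against 6 allows is 0.00216). Without heifer 6 the difference turned to -1.26 CPM (exact permutation test, p = 0.275). The fitted log2 fold change was 0.25 (SE 0.51, 95% confidence interval -0.86 to 1.37), with an adjusted p of 0.875 in edgeR's quasi-likelihood test with Benjamini-Hochberg adjustment, and it was -0.42 without heifer 6. The interval contains the 1.16 found in station A as well as 0, and a test of the difference between the stations was not made, since they compare different outcomes.

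ADAM20 was also chosen in station A, where its transcript was low in AI-pregnant heifers. NB-pregnant heifers 1 to 5 had 3.099, 3.51, 1.80, 1.72 and 2.49 CPM of ADAM20. The 6 AI-pregnant heifers had from 0.674 to 1.84 CPM, with a median of 1.11 CPM. The lowest NB-pregnant heifers, 3 and 4, fell just below the highest AI-pregnant heifer, number 1, and the other 3 of the 5 lay above the whole AI-pregnant group. The means were 2.52 ± 0.788 CPM (SD, n = 5) and 1.17 ± 0.508 CPM (SD, n = 6), a ratio of 2.15, and the fitted log2 fold change was 1.26 (SE 0.41). The values rest on 7 to 36 read pairs per library of station A.

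In station B the ADAM20 levels of the groups overlapped over nearly their whole range. The 6 AI-pregnant heifers had from 0.606 to 2.57 CPM, with a median of 1.14 CPM. The 6 non-pregnant heifers had from 0.461 to 2.55 CPM, with a median of 1.51 CPM. No non-pregnant heifer exceeded the highest AI-pregnant heifer. The means, 1.46 ± 0.846 and 1.43 ± 0.793 CPM (SD, n = 6 each), differed by 0.0303 CPM (exact permutation test, two-sided, p = 0.946). The fitted log2 fold change was 0.02 (SE 0.49, 95% confidence interval -1.05 to 1.10), with an adjusted p of 0.988 in edgeR's quasi-likelihood test with Benjamini-Hochberg adjustment. The upper bound was 1.31 without the 3 libraries apart, and a test against the 1.26 (SE 0.41) fitted in station A was not made. The sign of the difference turned when any of AI-pregnant heifers 2, 3, 4 or 5 or non-pregnant heifers 2, 3 or 5 was left out, with values from -0.188 to 0.259 CPM.

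CNKSR3 had the lower mean in AI-pregnant heifers in both stations. In station B, where it was chosen, the 6 non-pregnant heifers had from 1.64 to 5.50 CPM of CNKSR3, with a median of 2.29 CPM. The 6 AI-pregnant heifers had from 0.441 to 2.13 CPM, with a median of 0.819 CPM. Of the AI-pregnant group, 4 heifers were below 1 CPM, and 5 of 6 were below the lowest non-pregnant heifer. Heifer 1, at 2.13 CPM, was the exception and lay within the non-pregnant range. The ratio of the means was 2.47, and the fitted log2 fold change was 1.26 (SE 0.43), or 0.96 without non-pregnant heifer 6, which had the highest CNKSR3 value of the study. The difference of the means was 1.60 CPM with all heifers and 1.04 CPM without heifer 6, which is over 1.5 times smaller.

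Station A holds heifers that did not choose CNKSR3, and the transcript was higher there in NB-pregnant heifers. NB-pregnant heifers 1 to 5 had 2.01, 3.51, 2.84, 3.83 and 4.97 CPM of CNKSR3. The 6 AI-pregnant heifers had from 1.16 to 2.78 CPM, with a median of 2.22 CPM. All NB-pregnant heifers but heifer 1 lay above every AI-pregnant heifer, that is 4 of 5, and heifer 1 lay inside the AI-pregnant range. The means were 3.43 ± 1.11 CPM (SD, n = 5) and 2.15 ± 0.594 CPM (SD, n = 6), a ratio of 1.60. The difference was 1.28 CPM, and few relabellings of the heifers gave one at least as large (two-sided exact permutation test, p = 0.0281). This was 1 of 3 such tests of a gene in the station that had not chosen it, and p was not adjusted for that number.

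Across all retained genes of station A the same permutation test had p under 0.05 for 233 of 12128 genes (1.92%), and for 48 (0.396%) with the higher mean in NB-pregnant heifers. CNKSR3 was among these 48. In station B the corresponding numbers were 61 of 10832 genes (0.563%) and 32 (0.295%), and neither P2RY12 nor ADAM20 was among them. In both stations the share in either direction was below what a threshold of 0.05 passes on average with no effect of outcome. In station A CNKSR3 did not pass edgeR's quasi-likelihood test after Benjamini-Hochberg adjustment over the 12128 genes, with a log2 fold change of 0.83 (SE 0.33, 95% confidence interval 0.12 to 1.55), an unadjusted p of 0.0264 and an adjusted p of 0.999. The labels were also permuted only within the 2 kinds of library of station A. The statistic there was the mean of the differences within each kind, weighted by its number of libraries. It was 1.27 CPM, and this exact permutation test gave p = 0.0667. With 1 heifer left out at a time the difference of the group means stayed between 0.898 and 1.64 CPM, and p was between 0.00476 and 0.0762 in the exact permutation test over all labels. It was above 0.05 without AI-pregnant heifers 1, 4 or 6 and without NB-pregnant heifers 4 or 5. The lowest difference, 0.898 CPM, was the value without NB-pregnant heifer 5.

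**Figure D2:**
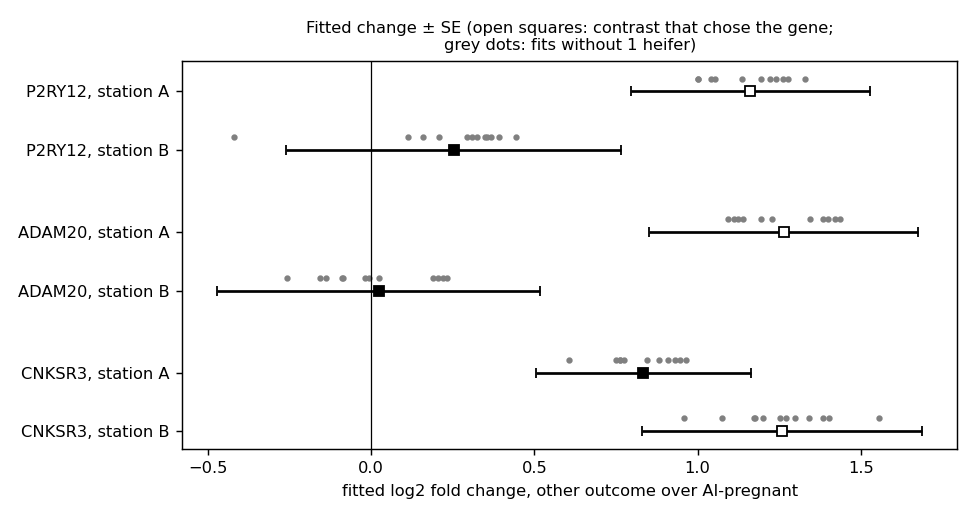
Fitted log2 fold change of each gene in each station (squares, with the SE as bars), positive where the transcript was higher in NB-pregnant (station A) or non-pregnant (station B) heifers than in AI-pregnant ones. Open squares are the contrasts that chose the gene, and grey dots are the fits with 1 heifer left out. CNKSR3 has all its points above 0 in both stations, while in station B the dots of ADAM20 scatter on both sides of 0 and those of P2RY12 include a single point below 0, at -0.42.

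No gene of either station passed the adjusted p threshold of 0.05 in edgeR's quasi-likelihood test, 0% of 12128 genes in station A and 0% of 10832 in station B, where 101 genes (0.833%) and 48 genes (0.443%) had an unadjusted p under 0.05. DESeq2's Wald test with adjusted p values called 2 genes in station A and 0 in station B. The rule of the study asked for P values, not adjusted, of at most 0.01 from edgeR (likelihood ratio) and from DESeq2 (Wald) alike. For each station the paper gave an empirical false discovery rate for this threshold, from randomized sample labels, and that rate was not recomputed here. It called 18 of 12128 genes (0.148%) in station A, 8 of them higher in NB-pregnant heifers (0.066%), and 6 of 10832 (0.0554%) in station B, 5 of them higher in non-pregnant heifers (0.0462%). P2RY12 and ADAM20 are 2 of these 8 and CNKSR3 is 1 of these 5.

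Ordered by the larger of the 2 P values, P2RY12 (0.00666) and ADAM20 (0.00738) were the 12th and 13th of the 18 genes of station A, and CNKSR3 (0.00763) was the 4th of the 6 genes of station B. The last gene inside the rule had 0.00957 and the first outside it 0.0106 in station A, against 0.00896 and 0.01002 in station B. With 1 heifer left out, the fitted log2 fold change in the contrast that chose the gene was 0.9998 to 1.33 for P2RY12, 1.09 to 1.44 for ADAM20 and 0.96 to 1.56 for CNKSR3, values that the choice itself had favoured. With 1 heifer left out, the rule still called P2RY12 in 4 of 11 fits and ADAM20 in 5 of 11 (station A). It called CNKSR3 in 4 of 12 (station B). With all heifers, the rule did not call CNKSR3 in station A (edgeR P 0.0591, DESeq2 P 0.0208), and it called neither P2RY12 nor ADAM20 in station B.

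The order of the 4 group means differed between the genes. Means of the contrast that chose a gene were part of that choice, so the steps are a description only. At every step the ranges of the neighbouring groups overlapped. P2RY12 had its lowest mean in AI-pregnant heifers of station A (3.01 CPM), followed by AI-pregnant heifers of station B (5.22), NB-pregnant heifers (6.29) and non-pregnant heifers (6.45). The first step exceeded 1 pooled SD, and the other steps did not. The place of the non-pregnant group rests on heifer 6, without which its mean was 3.96 CPM, between the AI-pregnant means of the 2 stations, and with TMM library sizes the NB-pregnant mean (6.51) was above the non-pregnant mean (6.32). ADAM20 had similar means in the AI-pregnant heifers of station A (1.17 CPM) and of station B (1.43) and in non-pregnant heifers (1.46), and the step to the NB-pregnant mean (2.52) was the one beyond 1 pooled SD. CNKSR3 was lowest in AI-pregnant heifers of station B (1.09 CPM), beyond 1 pooled SD below those of station A (2.15), and the further steps to non-pregnant (2.70) and NB-pregnant heifers (3.43) were within it. Without heifer 6 the non-pregnant mean was 2.14 CPM, level with the AI-pregnant heifers of station A. Station, library profile and any difference in sequencing cannot be told apart in any step between stations, and the labels name no sequencing run. Where the outcomes of such a step differ, outcome cannot be told apart from station either. The paper gives a higher mean age and weaning weight for the heifers of station B.

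The differences were also looked at inside each kind of library. Within the 6 libraries of station A with the lower share of counts in the top genes, the mean CPM of NB-pregnant against AI-pregnant heifers was 7.87 against 2.96 for P2RY12, 2.65 against 1.003 for ADAM20 and 3.18 against 2.28 for CNKSR3 (2 and 4 heifers). Within the 5 top-heavy libraries it was 5.24 against 3.12, 2.44 against 1.51 and 3.60 against 1.89 (3 and 2 heifers). For P2RY12 and ADAM20 these are the heifers that chose the genes, so their direction is a description. For CNKSR3, which was not chosen here, the mean was higher in NB-pregnant heifers in both kinds of library. Without normalization factors the fitted log2 fold change of CNKSR3 in station A was 0.66 (95% confidence interval -0.028 to 1.34). In that fit the median of all genes moved from 0.01 to -0.12.

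In station B, leaving aside the 3 libraries apart kept 5 AI-pregnant and 4 non-pregnant heifers. The mean of CNKSR3 was then 2.93 CPM without pregnancy and 1.15 CPM with pregnancy to AI, with a fitted log2 fold change of 1.28. P2RY12 had 8.22 against 5.41 CPM, a difference of 2.80 CPM (exact permutation test, p = 0.587), and ADAM20 1.75 against 1.48 CPM (exact permutation test, p = 0.643). The rule of the study did not call CNKSR3 without these 3 libraries.

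For ADAM20 and CNKSR3, counting error was a larger part of the spread in station A than in station B. For ADAM20 the SD between heifers was 1.24 to 1.92 times the SD that the read counts alone give, over the 4 groups, and for CNKSR3 1.23 to 2.48 times. For P2RY12 it was 1.88 to 6.77 times, the last in the non-pregnant group that holds heifer 6. In single libraries P2RY12 had 17 to 201 read pairs, ADAM20 4 to 36 and CNKSR3 4 to 57.

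**Figure D3:**
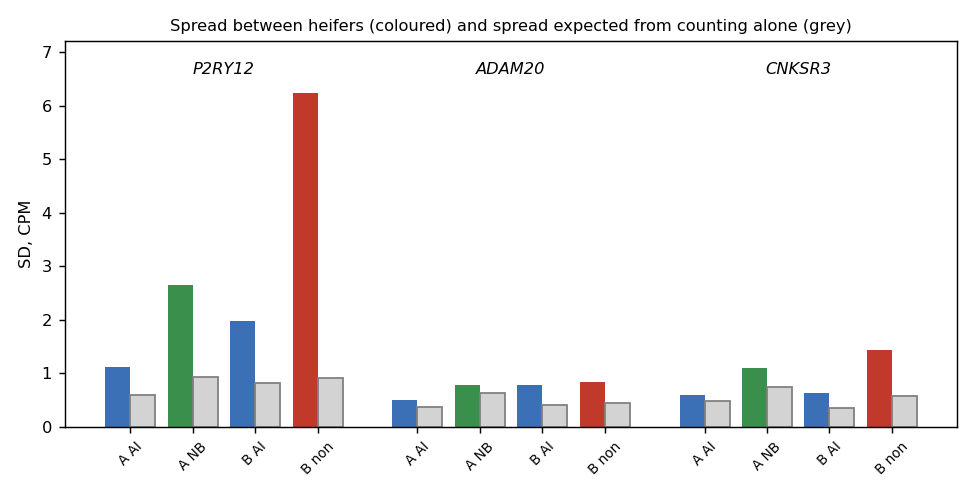
SD between heifers in CPM (coloured bars) beside the SD expected from counting read pairs alone (grey bars), for each gene in the 4 groups (A AI and B AI, AI-pregnant of each station, A NB, NB-pregnant, B non, non-pregnant). The coloured bar is 1.24 to 1.92 times the grey bar for ADAM20, and 6.77 times for P2RY12 in the non-pregnant group.

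How the genes followed each other across heifers depended on whether group means were taken out. For P2RY12 and CNKSR3, Spearman's rho over the 11 heifers of station A was 0.70, or 0.23 with the group means taken out, and over the 12 heifers of station B it was 0.09, or 0.25. Without the 2 heifers farthest from the median of CNKSR3 it was 0.70 (A) and -0.45 (B). For ADAM20 and P2RY12 rho was 0.44 in station A and turned to -0.27 with the group means taken out, and it was 0.06 both ways in station B. For ADAM20 and CNKSR3 it was 0.26 in station A and turned to -0.45, and in station B it was -0.11 and -0.20. All points share their library, its depth and the pregnancy outcome, so these values are a description of the heifers.

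**Figure D4:**
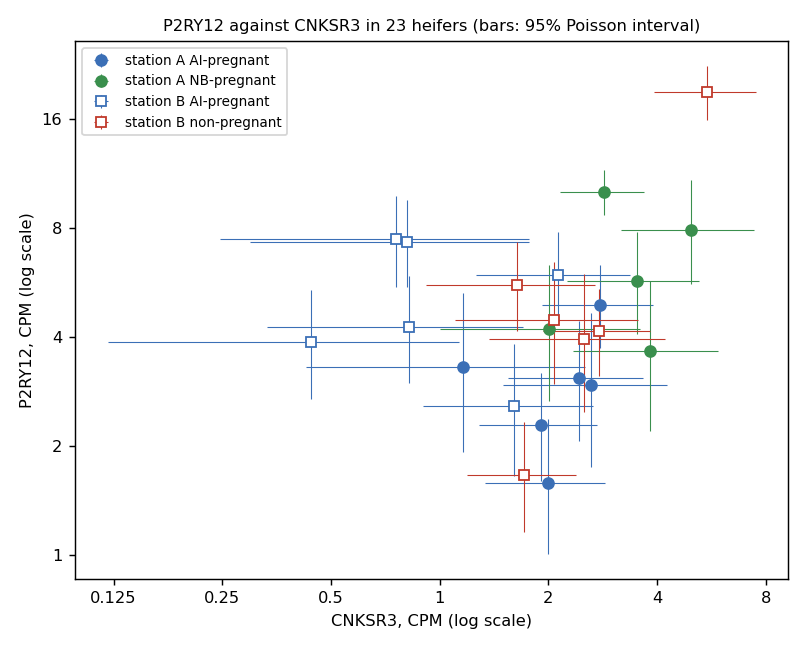
P2RY12 against CNKSR3 in CPM, both axes on a log scale, 1 point per heifer, with 95% Poisson intervals that cover counting error only. Non-pregnant heifer 6 of station B stands alone at the upper right, with 18.9 CPM of P2RY12 and 5.50 CPM of CNKSR3, and AI-pregnant heifers of station B make up the points below 1 CPM of CNKSR3.

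Among the other genes retained in both stations, those whose log2 CPM followed each member most closely over the 23 libraries were ENSBTAG00000006529 for P2RY12 (Spearman's rho 0.68), ENSBTAG00000042461 for ADAM20 (0.80) and ENSBTAG00000002917 for CNKSR3 (0.73). The 5 closest genes reached down to rho of 0.60, 0.77 and 0.67. The 99th percentile over the 10421 genes compared was 0.48, 0.56 and 0.53. The files do not pair these identifiers with names. After group means and the first principal component of each station were taken out, 0 of the 15 closest genes were again among the closest.

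In the RefSeq annotation of the ARS-UCD2.0 assembly, P2RY12 lies inside the span of MED12L and beside P2RY13, the gene of a further ADP receptor, ADAM20 lies between the pseudogene LOC100140723 and MED6, and CNKSR3 lies between IPCEF1 and the pseudogene LOC783190. The counts were made on another assembly, so no coordinates are given here. The libraries were made with a stranded kit, the strand setting of the counting is not given in the sources used here, and read pairs of P2RY12 and MED12L may not be told apart if strand was not used.

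Of the markers of blood cell types, 2 could be matched to identifiers, and both are genes that the rule of the study called in 1 of the stations. FCER1A, the alpha chain of the high-affinity IgE receptor of basophils and mast cells, had medians of 15.9 CPM in AI-pregnant and 8.43 CPM in NB-pregnant heifers of station A, and of 15.4 and 16.1 CPM in AI-pregnant and non-pregnant heifers of station B. ALAS2, the erythroid enzyme of heme synthesis, had medians of 63.8 and 81.8 CPM in station A and of 3.91 and 6.82 CPM in station B, with up to 44.3 CPM in a non-pregnant heifer. Neither was at 0 in any library. Non-pregnant heifer 6, with the highest P2RY12 and CNKSR3, had 21.7 CPM of FCER1A and 4.09 CPM of ALAS2. Platelet, monocyte and lymphocyte markers were not analysed here, so the part of cell composition in the P2RY12, ADAM20 and CNKSR3 values was not tested, and in bulk RNA fewer cells of a type and less RNA per cell cannot be told apart.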

How the data were processed

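PWBC RNA from 23 heifers was sequenced as read pairs from libraries of a stranded mRNA kit, 1 per heifer. The authors aligned the pairs to the bovine genome UMD 3.1, removed pairs that aligned to several places, pairs with 5 or more mismatches and duplicates, and counted the rest on Ensembl genes with HTSeq (the aligner, the versions of aligner and HTSeq and the strand setting are not given in the sources used here). They deposited, for each station, raw counts of 24616 genes, counts of the retained genes, and FPKM. The deposited FPKM were made by the authors from the retained counts, with 1 length per gene, and were used here only to compare levels between genes.

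CPM were computed on the total of all genes of a library. Stations were fitted apart, on genes above 1 CPM in at least 6 libraries, in edgeR 4.0.16 (R 4.3.3, limma 3.58.1) by the quasi-likelihood test (robust, TMM factors), with Benjamini-Hochberg adjustment over all genes tested and calls at 0.05. The rule of the study used edgeR likelihood ratio tests without factors and DESeq2 1.42.0. Single genes were compared by two-sided exact permutation tests of mean CPM over heifers. Standard errors and confidence intervals are of the quasi-likelihood fit. Values and figures were computed with scipy 1.17.1, numpy 2.4.6, pandas 2.3.3 and matplotlib 3.10.9 under Python 3.11.15, and the tests were tested on simulated data.

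Named are the 3 genes, the list members that could be matched, and the genes of highest rho (5 per member, the first of them named). The members and lists were chosen with earlier results of these data known. Of 155 genes in 16 lists of related pathways and cell type markers, 2 (FCER1A and ALAS2) could be matched, because the RefSeq table, which matched 0 identifiers of the counts, pairs no Ensembl identifier with a symbol. The lists of purinergic receptors, nucleotide enzymes, Ras scaffolds, sodium channel genes and ADAM genes are therefore not reported. Alternatives were other normalizations, DESeq2, other filters, leaving out heifers 1 at a time, a term for the kind of library or for the first principal component, and other scales. Poisson intervals of single values cover counting error only. No 2 libraries held identical counts.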

Additional observations from a re-analysis of the deposited data

Results flagged for a closer look

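Dixon's test for single outlying values flagged non-pregnant heifer 6 of station B for both P2RY12 and CNKSR3. The heifer had 18.9 CPM of P2RY12 (next highest non-pregnant heifer 5.57 CPM) and 5.50 CPM of CNKSR3 (next highest 2.77 CPM). The gap over the range was 0.774 and 0.707, against a critical value of 0.625. Chance alone flags about 1 in 20 groups of normally distributed values, and 12 sets of values were looked at, 3 genes in 4 groups. CPM were not transformed for this, and whether they are normally distributed was not tested. The CNKSR3 value lies in the group whose high values chose CNKSR3, so it is a description only. The ADAM20 level of the same heifer, 0.564 CPM, was the second lowest of its group. Its library had 7090999 counts and did not stand apart from the other libraries of station B. No cause was tested.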

How the results depend on the processing

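The depth of the libraries limited what could be seen, since ADAM20 and CNKSR3 rest on as few as 4 read pairs in a library. The fitted log2 fold change of CNKSR3 in station A was positive under every alternative run and without any 1 heifer. Its 95% confidence interval reached below 0 without normalization factors, and also without AI-pregnant heifers 1 or 6 or NB-pregnant heifers 4 or 5. The sign was likewise always positive for P2RY12 and ADAM20 in station A and CNKSR3 in station B, where the choice of the genes had all but fixed it. In station B the sign turned for P2RY12 without non-pregnant heifer 6, with values over the fits without 1 heifer from -0.42 to 0.44 (mean CPM difference -1.26 to 2.18), and for ADAM20 in 7 of the fits without 1 heifer, from -0.26 to 0.23 (-0.188 to 0.259 CPM), as well as in DESeq2, at -0.0069. The CNKSR3 difference in station A lost its call when permuted within kinds of library (weighted difference 1.27 CPM) and in 5 of 11 fits without 1 heifer (0.898 to 1.64 CPM). DESeq2 called 2 genes in station A against 0, and leaving aside the 3 libraries of station B 1 against 0. Chosen after seeing the data, the rule of the study called 11 genes without these 3 libraries, 11 to 41 without 1 heifer of station A, and 2 to 1324 without 1 of station B, the last without AI-pregnant heifer 3. The causes were not tested. A filter at 2 CPM removed ADAM20 in both stations and CNKSR3 in station B, and gave no value there. Of the 15 genes of most alike pattern, 0 were shared after group means and the first component were removed. No paired analysis was possible because heifers of different groups share no animal and the labels number none of them in common.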
